A study of Mus musculus with 17 samples.

Results

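The 10 genes described here are well-known targets of the hypoxia-inducible factors (HIF): Vegfa, Egln1, Egln3, Pdk1, Bnip3, Ankrd37, Ndufa4l2, Car9, Adm and Ddit4. They were chosen by name as textbook hypoxia targets that bear on a kidney cancer transgene. Their values did not enter that rule, but earlier results of these data were known when it was made. All 10 were present among the 48795 genes of the count table. The table came from mRNA sequencing of 17 libraries of mouse kidney cortex in 4 groups. WT was wild type (n = 5). GCERAd was an ATF4 knockout in which a tamoxifen-activated Cre, driven by the Ggt1 promoter of proximal tubules, removes a floxed Atf4 gene (n = 5). TRACK was the transgenic model of kidney cancer (n = 3). GCERAdT combined the TRACK and ATF4 knockout labels (n = 4). GCERAd mice received tamoxifen on 2 days from 6 weeks of age, and tissue was taken 1 month after the first injection and after a fast of 16 h. The treatment and age of WT, TRACK and GCERAdT mice were not given in the sources used here. As background, TRACK mice express an active, oxygen-resistant form of HIF1α in proximal tubules. The labels do not describe this construct, and whether reads from it were counted on Hif1a is not known. The labels number each library as a mouse of its own, although the protocol in the labels speaks of 3 to 4 mice per cohort, so some WT or GCERAd libraries may share an animal.

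Total counts per library were between 53688512 and 71364561. Before any result is read, 4 features of the libraries matter. All 5 WT libraries had high Xist and no more than 0.306 TMM-scaled CPM (a gene's count relative to the scaled total of its library) of any of 4 Y-linked genes, whereas the other 12 libraries had 8.77 CPM or more of each Y-linked gene and at most 6.07 CPM of Xist. In every comparison with WT, the effect of sex therefore cannot be told apart from that of the label. Libraries also fell into 2 kinds by their share of counts on processed pseudogenes. Kind A held WT 1, 3, 4 and 5, GCERAd 1 and 2 and GCERAdT 1 and 2, and kind B held all others, including all 3 TRACK libraries. GCERAd 4 and 5 stood apart from GCERAd 1, 2 and 3 over all genes, and the mitochondrial share of counts was between 17.1% and 19.1% in WT, 15.1% and 16.3% in GCERAd 1, 2 and 3, and 11.6% and 15.0% in all others. Lastly, the targeted gene did not separate the ATF4 labels in the TRACK setting. Atf4 had 79.0, 74.4, 82.3, 86.4 and 100.1 CPM in WT, 73.1, 56.0, 57.7, 63.2 and 77 in GCERAd, 93.8, 79.8 and 77.2 in TRACK, and 79.6, 93.1, 92.8 and 104 in GCERAdT. Atf4 was lower in GCERAd than in WT (log2 fold change -0.38 ± 0.11 SE, adjusted p = 0.0218, edgeR quasi-likelihood test with Benjamini-Hochberg adjustment, as for all adjusted p values below), with overlapping values. It was not lower in the libraries labelled GCERAdT than in TRACK (0.17 ± 0.11, adjusted p = 0.367). Whole-gene counts of a mixed cortex do not show the floxed part of Atf4, so GCERAdT is used below as the name of libraries labelled so.

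HIF is a pair of proteins, an oxygen-regulated α subunit (HIF1α or HIF2α, from Hif1a and Epas1) and the stable partner ARNT. In the presence of oxygen, prolyl hydroxylases mark the α subunit, the von Hippel-Lindau protein binds the mark, and the α subunit is destroyed. When oxygen is low, or when the von Hippel-Lindau protein is lost as in most clear cell kidney cancers, the α subunit stays and switches on genes of glycolysis, pH control, mitochondrial restraint and vessel growth, many through a core DNA motif that reads ACGTG or GCGTG.

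To show where such letters lie, the 250 bases before the RefSeq start sites were searched for ACGTG and GCGTG on both strands (GRCm38.p6). RefSeq windows were matched for 9 of the 10 genes, in 11 windows, and Ndufa4l2 had no entry. All 9 had one or the other motif in a window and 7 had ACGTG. Of all 32851 windows, 16.6% held ACGTG, 28.2% held GCGTG and 38.6% held either. The windows of Ankrd37, Egln3 and Car9 are printed because, of the genes with an entry, these increased most in TRACK cortices. Both windows of Vegfa are printed because Vegfa was the gene of the set that did not increase there. Capitals mark a match on either strand.
Ankrd37, chr8:45999851-46000100, minus strand: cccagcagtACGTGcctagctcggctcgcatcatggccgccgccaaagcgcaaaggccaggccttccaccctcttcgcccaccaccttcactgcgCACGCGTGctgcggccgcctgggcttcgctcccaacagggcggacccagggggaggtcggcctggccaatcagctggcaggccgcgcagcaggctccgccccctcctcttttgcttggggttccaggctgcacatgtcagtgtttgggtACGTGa
Egln3, chr12:54203875-54204124, minus strand: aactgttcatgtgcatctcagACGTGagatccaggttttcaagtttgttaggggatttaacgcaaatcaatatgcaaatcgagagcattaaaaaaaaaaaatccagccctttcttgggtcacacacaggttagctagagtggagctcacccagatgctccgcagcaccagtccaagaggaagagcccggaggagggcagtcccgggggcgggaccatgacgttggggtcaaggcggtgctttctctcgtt
Car9, chr4:43506776-43507025, plus strand: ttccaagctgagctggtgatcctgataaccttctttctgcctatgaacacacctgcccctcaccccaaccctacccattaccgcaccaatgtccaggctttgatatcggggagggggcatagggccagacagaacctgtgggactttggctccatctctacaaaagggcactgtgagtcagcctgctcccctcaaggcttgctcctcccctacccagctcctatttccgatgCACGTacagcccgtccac
Vegfa, first start site, chr17:46032378-46032627, minus strand: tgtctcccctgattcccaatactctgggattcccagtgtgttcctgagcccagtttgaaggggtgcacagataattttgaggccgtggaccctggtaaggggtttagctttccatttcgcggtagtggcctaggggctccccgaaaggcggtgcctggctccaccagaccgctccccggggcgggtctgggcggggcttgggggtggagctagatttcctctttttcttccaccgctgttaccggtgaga
Vegfa, inner start site, chr17:46025164-46025413, minus strand: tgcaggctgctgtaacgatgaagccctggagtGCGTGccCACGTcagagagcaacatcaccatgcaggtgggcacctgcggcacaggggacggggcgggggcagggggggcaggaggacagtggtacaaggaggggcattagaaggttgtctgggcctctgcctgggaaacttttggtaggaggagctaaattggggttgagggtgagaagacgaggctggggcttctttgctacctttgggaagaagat
Ankrd37 had 2 ACGTG matches, at -241 and -6 from the start site, and 2 overlapping GCGTG matches on opposite strands at -155 and -152. Egln3 had a single ACGTG match, at -229, and Car9 a single one, at -18. The upstream window of Vegfa held neither motif, and its inner window held GCGTG at -218 and ACGTG at -211. A match describes letters only, and no match in a window of 250 bases says nothing about more distant sequence.

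In TRACK compared with WT cortices, 9 of the 10 HIF targets were increased, and for 8 of them every TRACK library lay above every WT library. The increases ran from 1.16-fold for Egln1 to 32.1-fold for Ndufa4l2, and Vegfa alone was not called. The median log2 fold change of the 10 genes was 2.36, against -0.01 over all 11967 genes tested. Of all tested genes 45.6% were called, 23% were increased, 22.6% were higher without overlap and 6.31% were increased at least 2-fold. With the ATF4 knockout label in both groups, the same transgene label gave a like picture: in GCERAdT compared with GCERAd, all 10 genes were increased, 9 without overlap. Their median log2 fold change was 2.03, against 0.00 over 11816 genes, of which 19.2% were called, 9.39% were increased, 8.89% were higher without overlap and 2.87% were increased at least 2-fold. These comparisons share no library, and in the latter all libraries had Y-linked counts. The groups of the latter differed in other ways. Dbp, a gene that follows the time of day, had 78.1 to 137 CPM in GCERAd and 8.91 to 14.9 in GCERAdT. Of 10 glucocorticoid and clock genes, 1 was increased and 6 were decreased in GCERAdT against GCERAd, where 19.2% of all genes were called. The part of these differences in the HIF target results was not tested. With mouse number as a block in the fit, 3770 genes were called in GCERAdT against GCERAd in place of 2266, and all 10 HIF targets were still called. Library kind follows the number in both groups, so this fit does not show that mice were paired.

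**Figure D1:**
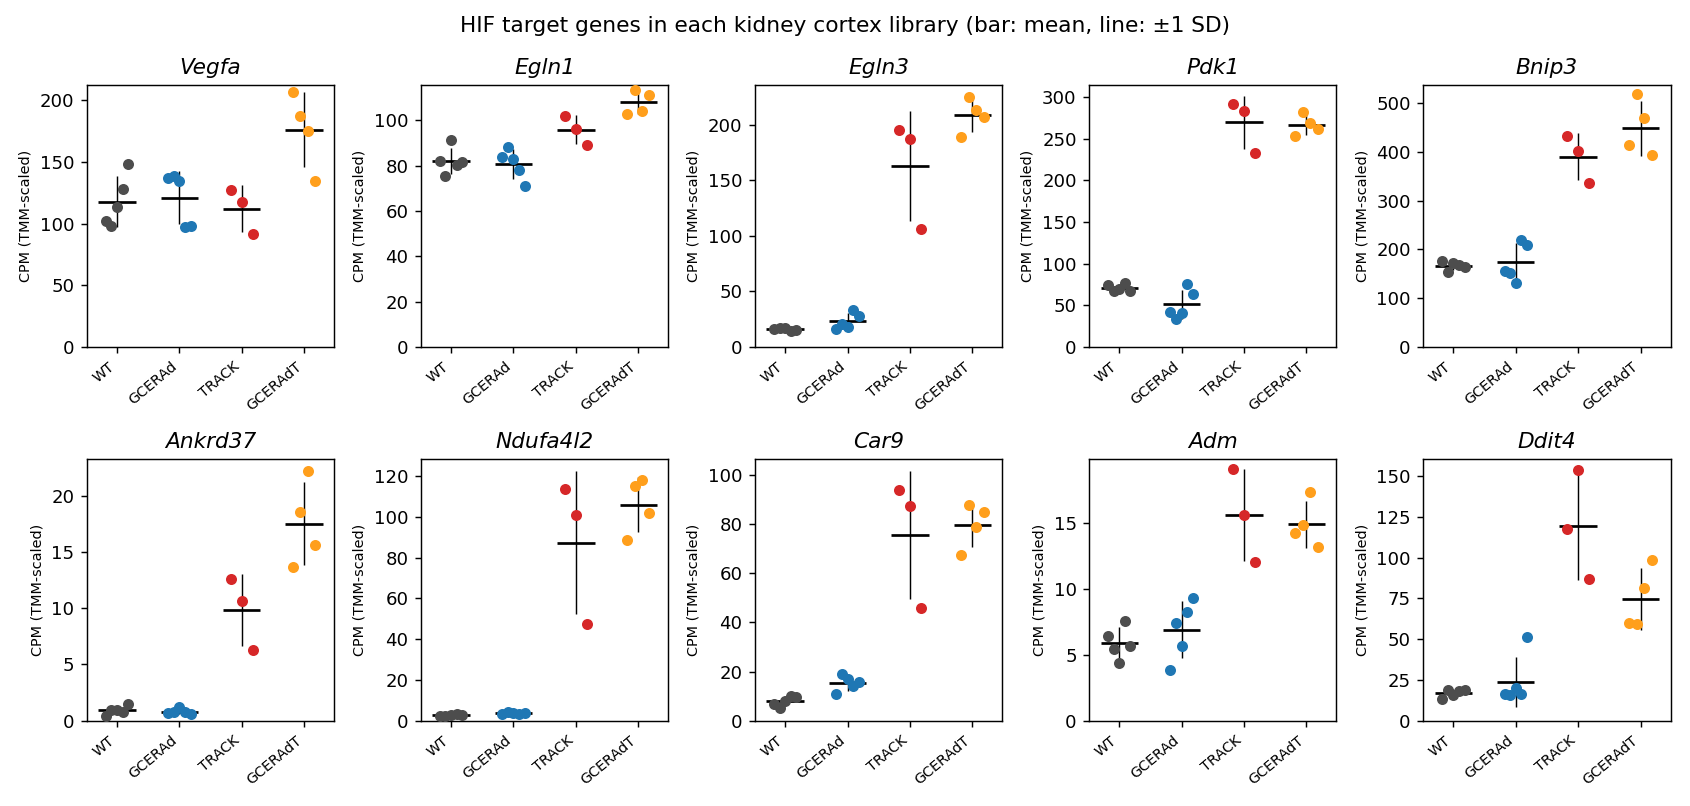
TMM-scaled CPM of the 10 HIF targets (y axis, starting at 0) in each library of the 4 groups (x axis). Each point is a library, the horizontal bar the group mean and the vertical line 1 SD either side of it. For 8 genes every TRACK and GCERAdT point sits above every WT and GCERAd point, and Vegfa and Egln1 are the exceptions. The share of all genes with such a pooled split was not counted.

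Egln3 (chr12:54178981-54203860, GENCODE coordinates on GRCm38, as for the genes below) and Egln1 (chr8:124908587-124949324) encode the prolyl hydroxylases PHD3 and PHD2, which mark HIFα for destruction and are themselves HIF targets, so that they form a feedback loop. Egln3 had 15.8, 16.6, 16.7, 14.3 and 15.2 CPM in WT and 16.0, 20.2, 18.2, 33.5 and 27.5 in GCERAd libraries. It had 195, 187 and 106 CPM in TRACK and 189, 225, 213 and 207 in GCERAdT. The libraries with and without the transgene label were separated by a wide gap, from 33.5 to 106 CPM. Egln3 was 10.3-fold higher in TRACK than in WT (log2 fold change 3.37 ± 0.17 SE, adjusted p = 7.28e-07) and 9.15-fold higher in GCERAdT than in GCERAd (3.19 ± 0.20, adjusted p = 3.53e-06).

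Egln1, the main oxygen sensor of most cells, moved little. Its levels were 81.9, 75.5, 91.3, 80.2 and 81.4 CPM in WT, 83.6, 88.0, 82.8, 78.0 and 71 in GCERAd, 102, 96.3 and 89.2 in TRACK, and 103, 113, 104 and 111 in GCERAdT. TRACK and WT values overlapped, whereas GCERAdT lay above all 3 other groups in every library. The increase in TRACK was 1.16-fold (0.22 ± 0.08, adjusted p = 0.0375). It did not pass without WT 1, 4 or 5 or without TRACK 1 or 2, where the adjusted p was between 0.0645 and 0.154. In GCERAdT compared with GCERAd, Egln1 was 1.35-fold higher (0.43 ± 0.08, adjusted p = 0.00523). It did not pass within libraries of kind B (adjusted p = 0.0765).

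The 3 genes that act on mitochondria and cell metabolism rose together. Pdk1 (chr2:71873224-71903858) encodes a mitochondrial kinase that switches off pyruvate dehydrogenase. It had 73.8, 67.4, 69.3, 76.5 and 67.3 CPM in WT and 41.7, 33.9, 40.3, 75.1 and 63.7 in GCERAd. In TRACK it had 291, 284 and 233 CPM and in GCERAdT 253, 282, 268 and 261. Pdk1 was thus at like levels with the transgene label whatever the ATF4 label, 3.79-fold above WT (1.92 ± 0.09, adjusted p = 3.75e-07) and 5.30-fold above GCERAd (2.41 ± 0.21, adjusted p = 3.68e-05).

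Ndufa4l2 (chr10:127514967-127517154) encodes a mitochondrial protein that lowers respiratory chain activity in hypoxia. It had 2.49, 2.38, 2.87, 3.12 and 2.7 CPM in WT and 3.34, 4.35, 3.85, 3.04 and 3.91 in GCERAd. It had 114, 101 and 47.4 CPM in TRACK and 88.7, 115, 118 and 102 in GCERAdT. This was the largest change of the 10 genes in both comparisons, 32.1-fold above WT (5.01 ± 0.25, adjusted p = 7.13e-07) and 28.9-fold above GCERAd (4.86 ± 0.14, adjusted p = 1.56e-08).

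Bnip3 (chr7:138890836-138909519), for a mitochondrial outer membrane protein that marks mitochondria for removal, had the highest level of the set before any change. It had 176, 153, 172, 168 and 164 CPM in WT and 156, 151, 131, 219.9 and 209 in GCERAd. It had 432, 402 and 337 CPM in TRACK and 414, 518, 471 and 393 in GCERAdT. Neither transgene group overlapped its counterpart, and the folds were 2.34 against WT (1.23 ± 0.08, adjusted p = 4.21e-06) and 2.63 against GCERAd (1.39 ± 0.16, adjusted p = 0.00027).

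Car9 (chr4:43506966-43513729) encodes carbonic anhydrase IX, a cell surface enzyme that hydrates carbon dioxide and a widely used marker of clear cell kidney cancer. It had 6.93, 5.03, 8.01, 10.2 and 9.60 CPM in WT and 10.8, 19.2, 17.1, 14.0 and 15.6 in GCERAd. It had 93.8, 87.5 and 45.7 CPM in TRACK and 67.4, 87.6, 78.8 and 85.0 in GCERAdT. The 4 groups were ordered WT, GCERAd, then the overlapping TRACK and GCERAdT. Car9 was 9.49-fold above WT in TRACK (3.25 ± 0.25, adjusted p = 1.04e-05) and 5.25-fold above GCERAd in GCERAdT (2.39 ± 0.15, adjusted p = 3.92e-06).

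Of the genes for secreted factors, Adm rose and Vegfa did not in TRACK. Adm (chr7:110627661-110629820) encodes adrenomedullin, a peptide that widens vessels. It had 6.39, 5.44, 4.36, 7.57 and 5.66 CPM in WT, 3.85, 7.36, 5.62, 8.25 and 9.27 in GCERAd, 19.1, 15.6 and 12.0 in TRACK, and 14.2, 14.8, 17.3 and 13.1 in GCERAdT. Every library with the transgene label was above every library without it. The folds were 2.63 against WT (1.40 ± 0.19, adjusted p = 0.000293) and 2.2 against GCERAd (1.14 ± 0.22, adjusted p = 0.00562), and the latter did not pass within kind B (adjusted p = 0.0823).

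Vegfa (chr17:46016993-46032369) encodes the vascular endothelial growth factor A that drives vessel growth. It had 102, 97.6, 113, 128 and 149 CPM in WT and 137, 139, 135, 97.3 and 97.7 in GCERAd. It had 127, 118 and 91.3 CPM in TRACK and 207, 187, 175 and 135 in GCERAdT. TRACK lay within the range of WT but for its lowest library, and 3 of 4 GCERAdT libraries lay above all others. The change in TRACK against WT was -0.07 on the log2 scale (95% interval -0.41 to 0.26, adjusted p = 0.714), so an increase of the size seen in Egln3 or Adm lay outside the interval. In GCERAdT, Vegfa was 1.47-fold above GCERAd with overlap (0.56 ± 0.16, adjusted p = 0.0341). It did not pass without GCERAd 4 or 5 or without GCERAdT 1, 2 or 3, where the adjusted p was between 0.0522 and 0.0995, nor within kind B (adjusted p = 0.227).

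The remaining 2 genes are a stress-responsive brake on growth and a small ankyrin repeat protein. Ankrd37 (chr8:45996902-46005707), for the latter, had 0.402, 0.952, 0.950, 0.794 and 1.52 CPM in WT and 0.653, 0.744, 1.21, 0.731 and 0.617 in GCERAd. It had 12.6, 10.7 and 6.31 CPM in TRACK and 13.7, 18.6, 22.2 and 15.7 in GCERAdT. Its mean was below the expression minimum in WT (0.603 FPKM) and GCERAd (0.493 FPKM), so it entered both fits only through the groups in which it was high, and without it the counts of increased HIF targets were 8 of 9 and 9 of 9. From the lowest base of the set, it was 10.6-fold above WT in TRACK (3.41 ± 0.36, adjusted p = 5.9e-05) and 22.4-fold above GCERAd in GCERAdT (4.48 ± 0.23, adjusted p = 7.63e-07).

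Ddit4 (chr10:59949669-59951834) encodes REDD1, which restrains mTORC1 and responds to ATF4 and glucocorticoids as well as to HIF. It had 13.5, 19.0, 15.9, 18.4 and 18.9 CPM in WT and 16.5, 15.4, 19.9, 16.3 and 51.2 in GCERAd. It had 118, 153 and 87.1 CPM in TRACK and 60.0, 59.0, 81.4 and 98.5 in GCERAdT. GCERAd 5 alone stood far above its group, yet below every library with the transgene label. Ddit4 was 6.95-fold above WT in TRACK (2.80 ± 0.17, adjusted p = 2.52e-06) and 3.17-fold above GCERAd in GCERAdT (1.66 ± 0.35, adjusted p = 0.00888). Without GCERAd 5 the latter log2 fold change was 2.16. Within kind B it did not pass (adjusted p = 0.110), nor without GCERAd 1, 2 and 3 (adjusted p = 0.0714).

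**Figure D2:**
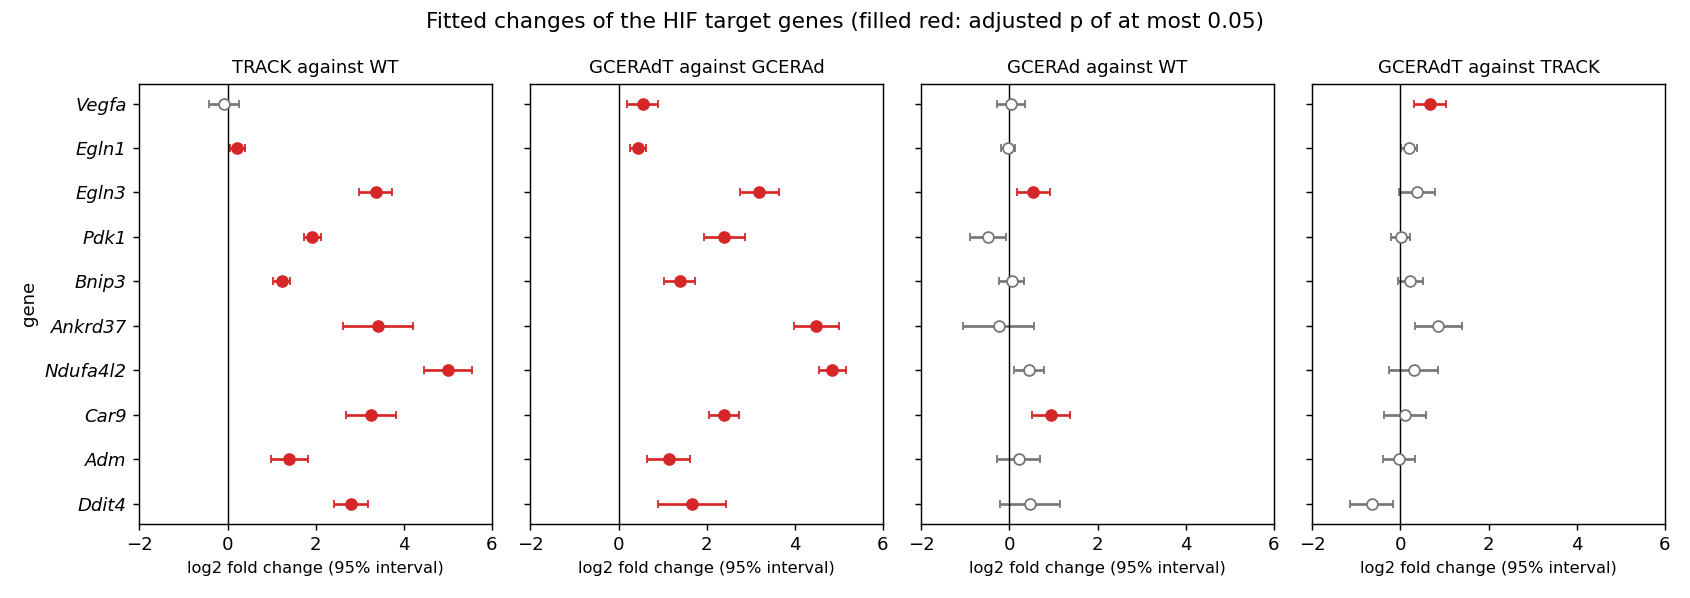
Fitted log2 fold change of each HIF target (x axis, with its 95% interval) in 4 comparisons (panels), with genes on the y axis. Filled red points passed an adjusted p of at most 0.05: 9 in TRACK against WT, 10 in GCERAdT against GCERAd, 2 in GCERAd against WT and 1 in GCERAdT against TRACK.

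The size of the response varied between TRACK libraries. TRACK 3 was the lowest of the 3 TRACK libraries for all 10 genes, at 44.2% of the mean of TRACK 1 and 2 for Ndufa4l2, 50.4% for Car9, 54.3% for Ankrd37 and 55.5% for Egln3, but 90.0% for Egln1. Without TRACK 3, 9 of the 10 genes were still called against WT. In GCERAdT the 10 genes were more even, with a median coefficient of variation of 12.2% against 25.2% in TRACK, a difference that was not tested. Some cell markers also moved with the transgene label. The summed level of 6 proximal tubule markers was between 5572 and 9347 CPM over WT and GCERAd libraries and between 3250 and 4758 CPM over TRACK and GCERAdT libraries. Of these 6 markers, 3 were decreased in TRACK against WT and 2 in GCERAdT against GCERAd, and none was increased. Over all genes, 45.6% and 19.2% were called in either direction in these comparisons. The largest fall was in Slc34a1, the proximal tubule phosphate transporter gene, at 3034 ± 285 CPM in WT and 1060 ± 204 in TRACK (SD), whereas Ggt1, whose promoter drives the Cre, had 581 ± 89.5 CPM in WT and 741 ± 162 in TRACK. With the ATF4 knockout label both were lower under the transgene label. Slc34a1 had 3832 ± 874 CPM in GCERAd and 1491 ± 174 in GCERAdT, and Ggt1 had 927 ± 90.8 and 678 ± 77.2. Sums of 5 endothelial markers were between 399 and 459 CPM in WT, 342 and 490.3 in GCERAd, 649.99 and 764 in TRACK, and 501 and 578 in GCERAdT. Sums of 5 pericyte and smooth muscle markers were between 115 and 146 CPM in WT, 112 and 246 in GCERAd, 325 and 472 in TRACK and 163 and 216 in GCERAdT, with 5 of 5 increased in TRACK against WT and 0 of 5 called in GCERAdT against GCERAd. Of all genes, 23% were increased in the former comparison and 19.2% were called in the latter. Havcr1, the injury marker KIM-1, was at 0.221 ± 0.171 CPM in WT and 18.2 ± 5.20 in TRACK. In bulk cortex, more or fewer cells of a type and more or less RNA per cell cannot be told apart, and the part of these markers in the HIF target results was not tested.

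With the ATF4 knockout label alone, few of these genes moved. In GCERAd compared with WT, 2 of the 10 were increased, Car9 and Egln3, and none was decreased, where 27.6% of 11581 genes were called, 14.1% of them upwards and 13.5% downwards, so the share of HIF targets called was close to that of all genes. Car9 was 1.92-fold higher in GCERAd without overlap, as were 10.5% of all genes (0.94 ± 0.20, adjusted p = 0.00479) and was called under every alternative run. Egln3 was 1.46-fold higher with overlap (0.54 ± 0.17, adjusted p = 0.0345). It did not pass without WT 1, 3, 4 or 5 or without GCERAd 4 or 5, where the adjusted p was between 0.0576 and 0.0759, nor when library kind entered the fit (adjusted p = 0.113). The median log2 fold change of the 9 genes that passed the expression minimum was 0.21, against 0.00 over all genes, and Ankrd37, below the minimum, had -0.24 ± 0.38 (adjusted p = 0.719) in a fit of all genes.

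Pdk1 and Ndufa4l2 lay close to the threshold. Pdk1 was 0.71-fold of WT in GCERAd (-0.49 ± 0.19, adjusted p = 0.0708), with GCERAd 1, 2 and 3 below all WT libraries and GCERAd 4 and 5 near them. It passed without GCERAd 4 (adjusted p = 0.00906) or GCERAd 5 (0.0475), and without both it was -0.87 (4.56e-05). It also passed by DESeq2 (adjusted p = 0.0319), in 1 edgeR fit of all libraries (0.0250) and when library kind entered the fit (0.0220). Ndufa4l2 was 1.36-fold of WT (0.44 ± 0.16, adjusted p = 0.0561) and passed without GCERAd 4 (adjusted p = 0.0386), by DESeq2 (0.0232) and when library kind entered the fit (0.0346). Over the 10 genes, GCERAd 4 and 5 were both above GCERAd 1, 2 and 3 for 4 genes (Egln3, Pdk1, Bnip3 and Adm) and both below for 2 (Vegfa and Egln1). The 95% interval of the log2 fold change ran from -0.29 to 0.36 for Vegfa, from -0.20 to 0.14 for Egln1 and from -0.23 to 0.32 for Bnip3. It was wider for Ddit4, from -0.21 to 1.14.

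Within the TRACK setting, the ATF4 knockout label went with 1 called change, where 7.09% of 11928 genes were called and 2.81% were increased. Vegfa was 1.60-fold higher in GCERAdT than in TRACK, without overlap (0.67 ± 0.16, adjusted p = 0.0377). All 3 TRACK libraries were of kind B, and with library kind as a covariate the adjusted p of Vegfa was 0.142 and within kind B it was 0.218. Leaving out TRACK 1, 2 or 3 or GCERAdT 1, 2 or 3 also ended this call, with adjusted p values between 0.0650 and 0.105. Egln1 and Ankrd37 were likewise higher in every GCERAdT library, as 10.2% of all genes were, but did not pass, at 1.14-fold (adjusted p = 0.176) and 1.81-fold (0.86 ± 0.24, adjusted p = 0.0626). The intervals of the remaining genes were widest for Ndufa4l2 (-0.26 to 0.86) and narrowest for Pdk1 (-0.21 to 0.22). The median log2 fold change of the 10 genes was 0.21, against 0.01 over all genes.

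Ddit4 was the gene of the set with the lowest point estimate in that comparison, at 0.64-fold of TRACK with overlap (-0.65 ± 0.22, adjusted p = 0.0993). It passed without GCERAdT 4 (adjusted p = 0.0430). Genes that respond to glucocorticoids or to the circadian clock moved between the same libraries. Of 10 such genes, 9 were lower and 1 was higher in GCERAdT than in TRACK, where 7.09% of all genes were called. In TRACK against WT, where Ddit4 rose, 8 of the 10 were increased and 2 decreased, and 45.6% of all genes were called. Fkbp5, a chaperone gene induced by glucocorticoids, had 299, 272 and 217 CPM in TRACK and 48.9, 44.6, 44.8 and 106 in GCERAdT (-2.09 ± 0.29, adjusted p = 0.00384). In WT it had 97.8, 105, 50.9, 62.2 and 67.7 CPM. It also had 217 and 211 CPM in GCERAd 4 and 5 against 76.1, 49.4 and 51.1 in GCERAd 1, 2 and 3, and Ddit4 was high in GCERAd 5 but not in GCERAd 4. Per1, a clock gene, had 84.8, 70.4 and 75.5 CPM in TRACK and 44.5, 29.2, 24.9 and 33.7 in GCERAdT. Dbp, whose level follows the time of day, had 109, 106 and 94.5 CPM in TRACK and 8.91, 14.9, 12.9 and 9.53 in GCERAdT (-3.13 ± 0.18, adjusted p = 4.82e-05). The times at which tissue was taken were not given in the sources used here, and the part of these genes' regulators in the Ddit4 values was not tested.

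**Figure D3:**
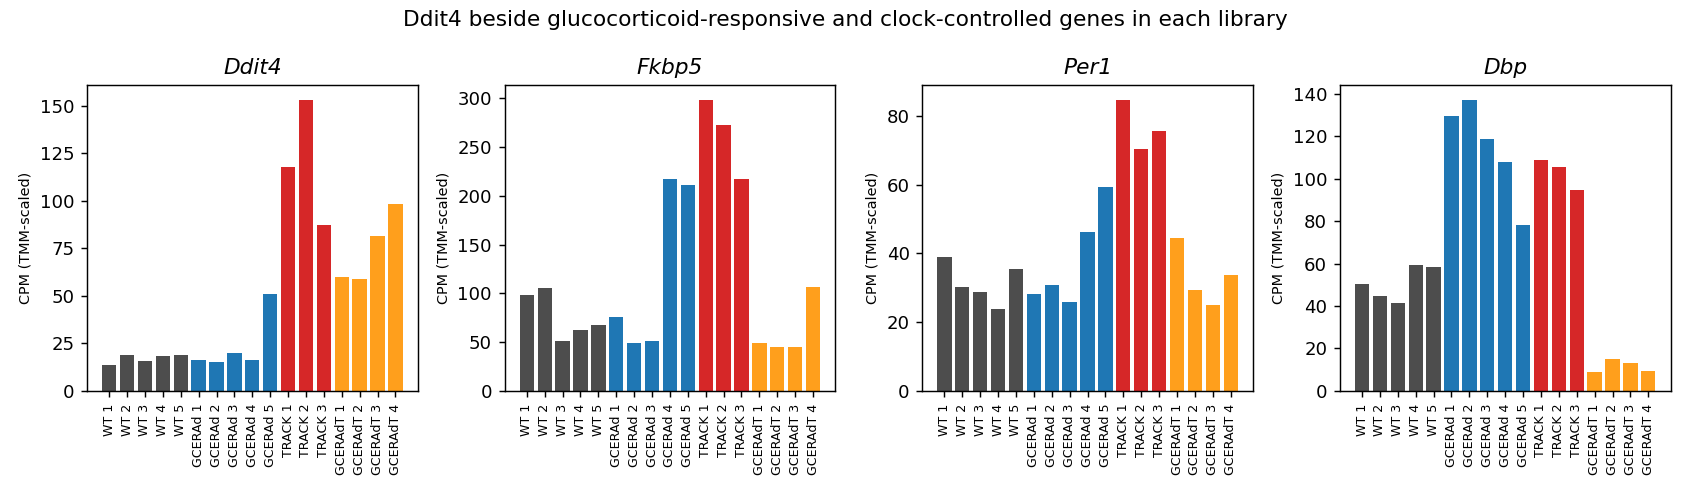
TMM-scaled CPM (bars, y axis starting at 0) of Ddit4, Fkbp5, Per1 and Dbp in each of the 17 libraries (x axis), coloured by group. Dbp lies between 78.1 and 137 CPM in every GCERAd and TRACK library and between 8.91 and 14.9 in every GCERAdT library, and Fkbp5 is high in GCERAd 4 and 5 and in TRACK.

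To ask whether the ATF4 label had a different effect in the 2 settings, the difference between both ATF4 comparisons was tested over all 17 libraries. None of the 10 genes passed, where 25.1% of 12208 genes did. In the same edgeR fit, 4 had an unadjusted p under 0.05, and DESeq2 called 2, Vegfa (adjusted p = 0.0310) and Car9 (adjusted p = 0.0281). The lowest edgeR value was that of Vegfa (0.65 ± 0.24 on the log2 scale, adjusted p = 0.058), followed by Car9 (-0.84 ± 0.32, 0.0619), Ddit4 (-1.12 ± 0.44, 0.0743) and Ankrd37 (1.09 ± 0.43, 0.0771). Single libraries decided these: Vegfa passed without WT 2, GCERAd 1, GCERAd 2 or GCERAdT 4 (adjusted p between 0.0240 and 0.0470). Car9 passed without WT 4, GCERAd 1 or TRACK 3 (0.0104 to 0.0442), and Ankrd37 without WT 1 or GCERAd 3 (0.0246 and 0.0374). Ddit4 passed without GCERAd 2 (0.0493) and Pdk1 without GCERAd 4 (0.0232).

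On a scale per gene length (FPKM), which allows levels of different genes to be compared, Bnip3 was the highest of the 10 in every group, at 73.7 ± 3.49 FPKM in WT and 174 ± 17.1 in TRACK (SD). In WT it was followed by Vegfa (27.6 ± 5.09) and Egln1 (22.9 ± 1.38), whose ranges overlapped, and Ankrd37 was lowest (0.603 ± 0.266). The order changed with the transgene label. Ndufa4l2, in the ninth place in WT at 2.48 ± 0.271 FPKM, was in the second place in TRACK (80.1 ± 30.6) and GCERAdT (101 ± 11.7). In TRACK it overlapped Ddit4 (68.5 ± 17.6), which overlapped Egln3 (61.6 ± 17.2), and in GCERAdT it overlapped Egln3 (81.7 ± 4.77) but lay above Ddit4 (44.4 ± 10.9). Vegfa, in the second place in WT, was in the eighth place in TRACK (26.4 ± 3.73), with a range that overlapped Egln1 above it (26.9 ± 1.11).

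The genes that make, partner or destroy HIFα moved by 0.13 on the log2 scale in TRACK against WT at their median, beside 2.36 for the 10 targets. Of 13 such genes tested, 5 were increased and 2 decreased in TRACK against WT, a share near the 45.6% of all genes called. Hif1a had 82.0, 94.1, 87.5, 91.0 and 80.5 CPM in WT and 111, 128 and 139 in TRACK (0.53 ± 0.09, adjusted p = 0.00103), and Epas1 had 139 ± 8.75 CPM in WT and 195 ± 3.04 in TRACK (0.48 ± 0.07, adjusted p = 0.000399), both without overlap. TRACK 3, lowest for all 10 targets, was the highest TRACK library for Hif1a. In GCERAdT the same genes were at 97.1 ± 2.72 and 150.1 ± 13.0 CPM and did not pass against GCERAd (adjusted p = 0.733 and 0.792). Arnt, Vhl and Egln2, which encode the HIF partner, the von Hippel-Lindau protein and the hydroxylase PHD1, did not pass in any of the 4 comparisons, and Hif1an, for the asparagine hydroxylase that blocks HIF activation, did not either. Cited2, a HIF target that competes with HIF for its coactivator, was the 1 gene of this list that increased in GCERAdT against GCERAd (71 ± 20.3 and 117 ± 13.4 CPM, adjusted p = 0.0171).

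A wider list of 40 other HIF targets showed which further branches moved. In TRACK against WT, 29 of 38 tested were increased and 2 decreased, with a median log2 fold change of 0.91, where 23% of all genes were increased. In GCERAdT against GCERAd, 24 of 37 were increased and 1 decreased, with a median of 0.86, where 9.39% of all genes were increased. At most 34 of the 40 passed the expression minimum in WT or GCERAd. The others tested here entered only through the groups with the transgene label, so both counts are partly set by the minimum. The largest increases were in Hk2, the first enzyme of glycolysis, at 0.339 ± 0.103 CPM in WT, 0.580 ± 0.379 in GCERAd, 17.2 ± 9.39 in TRACK and 21.8 ± 2.12 in GCERAdT, and in Slc16a3, the lactate exporter MCT4, at 0.514 ± 0.192, 0.433 ± 0.0996, 18.4 ± 3.23 and 40.1 ± 6.27 CPM. Hk2 and Slc16a3 were below the expression minimum in WT and GCERAd. They entered both fits only through the groups in which they were high, so their place at the top is partly set by the minimum. Lox, a collagen cross-linking enzyme, rose in TRACK against WT (2.49 on the log2 scale, adjusted p = 0.000176). Car12, a relative of Car9, was lower in TRACK than in WT (-0.65, adjusted p = 0.00162), the opposite direction to Car9, and so was Ndrg1 (-0.56, adjusted p = 0.00166). Counts of glycolytic genes with many pseudogene copies, such as Gapdh, Pgk1 and Eno1, are uncertain where reads could be split.

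**Figure D4:**
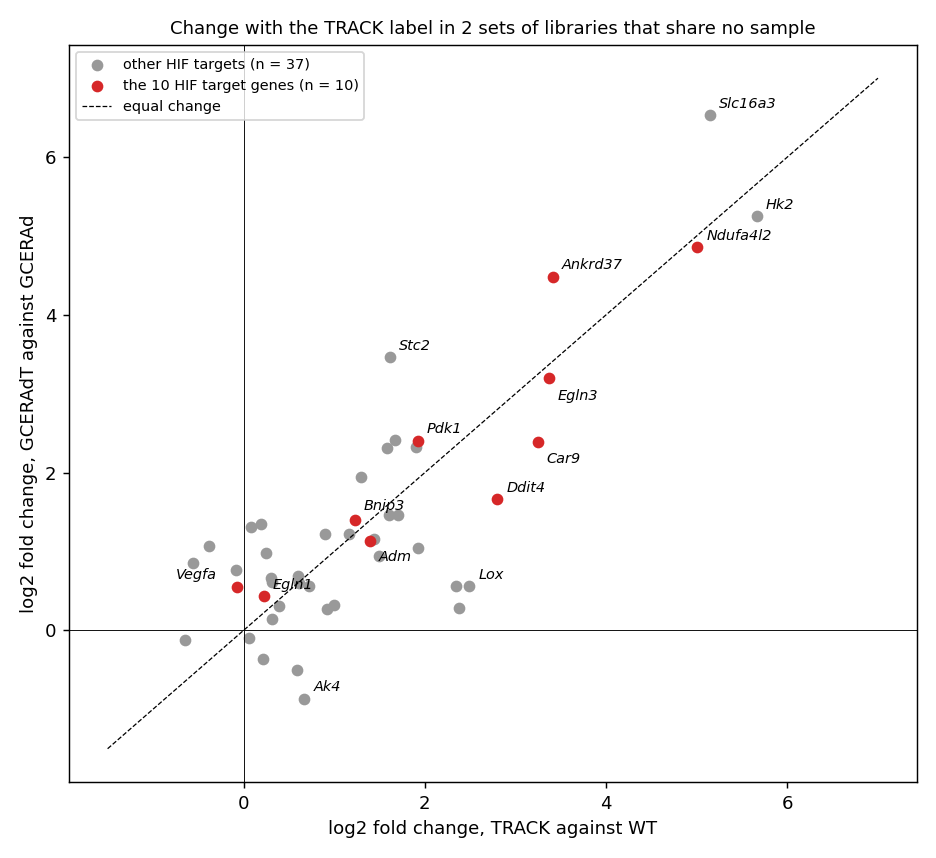
Fitted log2 fold change in TRACK against WT (x axis) and in GCERAdT against GCERAd (y axis) for the 10 HIF targets (red) and 37 other HIF targets (grey), with a dashed line of equal change. These comparisons share no library, and 9 of the 10 genes were increased in both, as were 20 of the 37 others, with Ak4 called in opposite directions.

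Across the comparisons that share no library, 9 of the 10 genes and 20 of the 37 other targets were increased in both, none was decreased in both, and 1, Ak4, a mitochondrial adenylate kinase, was called in opposite directions. Some of the 37 passed the expression minimum only through the groups with the transgene label. Ak4 was higher in GCERAd than in WT (0.68 on the log2 scale, adjusted p = 0.000142) and lower in GCERAdT than in GCERAd (-0.86, adjusted p = 0.00027). In GCERAdT against TRACK, 8 of 38 other targets were increased and 6 decreased, where 7.09% of all genes were called. The increases were led by Slc16a3 (1.15, adjusted p = 0.00358), the secreted glycoprotein gene Stc2 (1.03, adjusted p = 0.000659) and Ndrg1 (1.01, adjusted p = 0.000915), and the decreases by Lox (-1.75, adjusted p = 0.0121), Ak4 (-0.85, adjusted p = 0.00337) and Angptl4 (-0.65, adjusted p = 0.0141). In GCERAd against WT, 8 of 34 were increased, led by the heme oxygenase gene Hmox1 (1.30, adjusted p = 0.00951) and the transferrin receptor gene Tfrc (1.20, adjusted p = 0.000228), and 5 decreased, led by Stc2 (-0.82, adjusted p = 0.00549), the glucose transporter gene Slc2a1 (-0.74, adjusted p = 0.000293) and Mif (-0.55, adjusted p = 0.0220). In GCERAd against WT, these shares (23.5% up and 14.7% down) were near those over all genes (14.1% and 13.5%), so they do not set the list apart.

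Genes that ATF4 is known to switch on were read beside the labels. Of 15 listed, 11 of 14 tested were increased and 1 decreased in TRACK against WT, where 23% of all genes were increased. At most 7 of the 14 passed the expression minimum in WT, because only 7 were tested in GCERAd against WT. The others entered only through TRACK, so the count of increased genes is partly set by the minimum. In GCERAdT against TRACK, 0 were increased and 1 was decreased of 14, a share close to the 7.09% of all genes called. In GCERAd against WT, 2 were increased and 1 decreased of 7 tested, where 27.6% of all genes were called. Asns, the asparagine synthetase gene, had 28.0, 22.4 and 15.9 CPM in TRACK and 16.3, 16.0, 15.9 and 24.7 in GCERAdT (-0.26 ± 0.20, adjusted p = 0.466), against 1.57 to 3.5 CPM in WT. Trib3, a stress-induced pseudokinase gene, had 18.7, 15.9 and 12.2 CPM in TRACK and 26.9, 20.4, 18.2 and 18.1 in GCERAdT (0.45 ± 0.18, adjusted p = 0.154). Both were thus far above WT in the libraries labelled GCERAdT. The mean of Asns and of Trib3 was below the expression minimum in WT and GCERAd. Both genes therefore passed it only through the groups in which they were high. In GCERAd they were at the level of WT, with 2.19, 2.51, 1.75, 2.96 and 2.43 CPM of Asns and 0.493 to 0.932 CPM of Trib3, beside 0.556 to 1.34 CPM of Trib3 in WT.

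As a description over 17 libraries, the genes whose log2 CPM followed each HIF target most closely were sought among 13302 genes. The libraries fall into groups with and without the transgene label. They are therefore not independent points, and r includes the difference between these groups. Egln3 was followed most closely by Il17rb (Pearson r = 0.99), Hk2 (0.99) and Ndufa4l2 (0.99), and Ndufa4l2 by Grin1, Zfp92 and Mgarp (0.99 or higher in each case). Ankrd37 was followed by Fam162a and Slc16a3 (0.99 each), and Car9 by Ldha (0.98), the lactate dehydrogenase gene. For Vegfa the closest were Mdm4 (0.91), Tet2 (0.91) and Ubn2 (0.89), and for Egln1 Nxph4 (0.97). The closest gene was Egln3 for Bnip3 (0.98), Apoc3 for Pdk1 (0.97), Nlrp10 for Ddit4 (0.96) and Slc25a30 for Adm (0.95). Vegfa and Egln3 themselves had an r of 0.43.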

How the data were processed

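The 17 libraries of mouse kidney cortex were profiled by stranded mRNA sequencing, with paired reads of 51 bases as the study's methods give them. Per the labels and the study's methods, the authors trimmed reads with Cutadapt, aligned them with STAR to GRCm38 and counted reads per gene with HTSeq, demultiplexing with bcl2fastq 2.20. The deposited table holds raw counts of 48795 genes, without normalization. The annotation release and strand setting were not given in the sources used here, so overlapping genes and near-identical copies are uncertain.

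Groups were compared 2 at a time with edgeR 4.0.16 (R 4.3.3) by TMM scaling and the quasi-likelihood test, with Benjamini-Hochberg adjustment over all genes of a mean FPKM of at least 1 in either group and a threshold of 0.05. FPKM used merged exon lengths of GENCODE on GRCm38, which 360 genes lacked. For a target below that minimum, a fit without a minimum was used. The difference of both ATF4 comparisons was fitted over all 17 libraries. CPM are TMM-scaled over 17 libraries. Errors are SD for levels and SE for log2 fold changes, and intervals cover 95%. P-values measure the spread between these libraries. Totals were between 53688512 and 71364561.

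The genes and lists were chosen with earlier results of these data known. Named genes were the 10 targets in every comparison, 7 genes of the HIF machinery, up to 3 called increases and 3 called decreases of other targets per comparison by size, preset ATF4, glucocorticoid, clock and sex-linked genes, and the 3 most alike genes by Pearson r of log2(CPM + 0.5). Other genes named in the text, such as cell type markers and further list members, were picked after values were seen. Deviations of same-numbered GCERAdT and GCERAd libraries from their group means correlated in every pair (r from 0.39 to 0.49). Library kind follows the number in the same way in both groups, so these values cannot show that mice were paired. Alternatives were DESeq2 1.42.0, RLE scaling, other filters, 1 fit of all libraries, a replicate block, library kind, summed repeat libraries and each library left out. Fits were tested on simulated data. Motif windows came from RefSeq promoters of GRCm38.p6.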

Additional observations from a re-analysis of the deposited data

Results flagged for a closer look

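Dixon's test, which looks for a library far from the rest of its group, was not run in TRACK, which had only 3 libraries. Of 66 group-by-gene sets of libraries examined in the other groups, 6 had such a library, which chance gives in about 1 of 20 sets. Among the HIF targets these were Ddit4 in GCERAd 5 (51.2 CPM, where the next highest library had 19.9) and Ankrd37 in GCERAd 3 (1.21 CPM, next 0.744). Among the companion genes they were Asns in GCERAdT 4 (24.7 CPM, next 16.3), Fkbp5 in GCERAdT 4 (106 CPM, next 48.9), Xist in GCERAd 1 (6.07 CPM, next 0.0750) and Kdm5d in WT 2 (0.306 CPM, next 0).

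The effect of the ATF4 label differed between the TRACK setting and the setting without the transgene for 8 of the other named genes (edgeR, test of the difference itself, where 25.1% of all genes passed). For the HIF machinery the log2 difference was -0.46 for Hif1a (adjusted p = 0.0263), -0.53 for Epas1 (0.0200), 0.31 for Hif1an (0.0149) and 0.88 for Cited2 (0.0161). It was 0.55 for Atf4 (adjusted p = 0.0210), lower with the knockout label in 1 setting and not in the other. The glucocorticoid and clock genes differed most, with -2.72 for Fkbp5 (adjusted p = 0.00454), -1.45 for Per1 (0.00406) and -4.29 for Dbp (8.6e-09). The WT group differs from the others by sex in this test, and the part of sex in these values cannot be told apart.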

How the results depend on the processing

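Of the HIF targets, 9 (DESeq2, RLE scaling, 1 fit of all libraries, library kind, summed repeat libraries) or 8 (all genes with a count, filterByExpr, the replicate block) were called in TRACK against WT, and 8 to 9 without single libraries. In GCERAdT against GCERAd 10 were called under the same alternatives, 9 to 10 without single libraries, 9 without GCERAd 4 and 5, 9 without GCERAd 1, 2 and 3, and 6 within kind B (3 GCERAd and 2 GCERAdT libraries). In GCERAd against WT, 4 were called by DESeq2, 1 with possible repeat libraries summed, 4 without GCERAd 1, 2 and 3, and 1 to 3 without single libraries. In GCERAdT against TRACK, 3 were called by DESeq2, 3 with all genes with a count, 0 with library kind as a covariate, 0 within kind B and 0 to 2 without single libraries. For the difference of both ATF4 comparisons, 2 were called by DESeq2, 1 with the replicate block, 2 with possible repeat libraries summed, 1 without GCERAd 4 and 5, 3 without GCERAd 1, 2 and 3, and 0 to 2 without single libraries.

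Over all genes, the counts moved by over 1.5 times to 2106 (GCERAd against WT, replicate block, beside 3198), 3431 and 2776 (TRACK against WT, replicate block and library kind, beside 5458), 1562, 462 and 221 (GCERAdT against TRACK, DESeq2, library kind and kind B, beside 846), and 3770 and 349 (GCERAdT against GCERAd, replicate block and kind B, beside 2266). Without single libraries they were 2477 to 3246 for GCERAd against WT, 4101 to 6041 for TRACK against WT, 379 to 1424 for GCERAdT against TRACK, 1427 to 2336 for GCERAdT against GCERAd and 2205 to 3303 for the difference. The causes were not tested. In the other comparisons, same-numbered libraries showed no such correlation (r from -0.54 to 0.04). All block results rest on shared numbers only. With the replicate block Egln3 in GCERAd against WT (adjusted p = 0.0974) and Egln1 in TRACK against WT (0.188) did not pass, Pdk1 in GCERAd against WT passed (0.0496), Ddit4 passed in the difference (0.0478), and no other call of a HIF target changed.

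The changes of sign were all in log2 fold changes that passed in neither fit. In GCERAd against WT, Vegfa was -0.068 with repeat libraries summed, -0.30 without GCERAd 1, 2 and 3, and -0.01 to -0.03 without WT 1, WT 2, GCERAd 1, GCERAd 2 or GCERAd 3 (-0.0106, -0.0261, -0.0179, -0.0247, -0.0121), with a range of -0.03 to 0.13 over single libraries. Egln1 was 0.0294 with library kind, 0.0540 without GCERAd 4 and 5, 0.00290 without WT 3 and 0.0148 without GCERAd 5 (single libraries from -0.068 to 0.015). Bnip3 was -0.00241 with library kind, -0.19 without GCERAd 4 and 5, and -0.0457 and -0.0260 without GCERAd 4 or 5 (up to 0.13). Adm was -0.0647 without GCERAd 4 and 5, Ankrd37 0.0167 without WT 5 (down to -0.44) and Ddit4 -0.0107 without GCERAd 5 (up to 0.58). In TRACK against WT, Vegfa was 0.0962 with the replicate block, 0.19 with library kind, 0.0252 without WT 5 and 0.0538 without TRACK 3 (down to -0.17). In GCERAdT against TRACK, Pdk1 was -0.00945 with all genes with a count, -0.00978 with filterByExpr, -0.00117 in 1 fit of all libraries, -0.00152 with library kind, -0.00426 within kind B, and -0.0810, -0.0267 and -0.00842 without TRACK 3, GCERAdT 2 or GCERAdT 3 (up to 0.059). Adm was 0.0384 with the replicate block, 0.12 without TRACK 1 and 0.0217 without GCERAdT 4, and Car9 -0.16 without TRACK 3 (up to 0.28). In the difference, Egln3 was 0.0731 with library kind, 0.16 without GCERAd 4 and 5 and 0.00868 without GCERAd 4 (down to -0.40), Adm was 0.0210 without GCERAd 4 and 5, Bnip3 was -0.11 without GCERAd 1, 2 and 3, and Ndufa4l2 was 0.0959 without TRACK 1 (down to -0.44). Sex could not be fitted as a covariate, since it is aliased with WT. Library kind as a covariate where TRACK holds 1 kind, the fits within kind B and those without parts of GCERAd were chosen after seeing the data. At these depths counting error is small beside the spread between libraries for most of the genes, but less so for Ankrd37 and Ndufa4l2 without the transgene label. In WT these had 27 to 92 and 140 to 169 counts.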

Other observations

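Among the lists that accompany the HIF targets, tubule segments beyond the proximal tubule also changed level. Of 3 principal cell markers, 3 were lower in TRACK than in WT, and 3 were lower in GCERAd than in WT, where 45.6% and 27.6% of all genes were called in either direction. Aqp2, the collecting duct water channel, had 523 ± 58.1 CPM in WT, 209.6 ± 96.0 in GCERAd, 228 ± 31.3 in TRACK and 126 ± 56.9 in GCERAdT (SD). Of 5 red cell genes, 4 were higher in TRACK than in WT and 4 were higher in GCERAd than in WT, where 23% and 14.1% of all genes were increased. Epo, the erythropoietin gene and a classical HIF2α target, was below the expression minimum, at 0.0442 ± 0.0892 CPM in WT and 0.0832 ± 0.0881 in TRACK. Hif3a, an inhibitory HIF family member, had 1.69 ± 0.478 CPM in WT and 7.92 ± 1.98 in TRACK (log2 fold change 2.22, adjusted p = 0.000109, edgeR), and 1.43 ± 1.17 in GCERAd and 4.43 ± 1.01 in GCERAdT (1.63, adjusted p = 0.0739).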
